A study of Mus musculus with 11 samples.

Results

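Col16a1, Emilin1 and Ltbp4 are genes of the extracellular matrix. Their RNA was compared between cardiac fibroblasts of a Pw1 conditional knockout (CKO) and control fibroblasts after myocardial infarction. The members were the table rows with these 3 gene symbols, 3 of 1293 complete genes in the part of the table held. Pw1, whose gene symbol is Peg3, is an imprinted zinc finger gene, and the study asked how it regulates matrix genes in these cells. Poly(A) RNA was sequenced from fibroblasts of the injured left ventricle at day 3 after infarction, in 5 CKO and 6 control libraries. In the CKO mice a Pdgfra-driven Cre deletes the floxed Pw1 alleles, so the deletion reaches every cell in which that promoter was active. The labels word the genotypes in 2 ways. In set 1, CKO 1 to 3 were Pdgfra-Cre;Pw1fl/fl, and control 1 to 3 were given jointly as wild type, Pw1fl/+ or Pw1fl/fl, so their single genotypes are not known. In set 2 the CKO libraries were PDGFRa Cre+;Pw1 fl/fl and control 4 to 6 were Pw1 fl/fl. The labels name Cre in the CKO libraries and in no control, so Cre and the deletion of Pw1 cannot be told apart. The labels give no age, and they do not say whether each library came from its own animal, so p-values measure the spread between these libraries only.

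The columns of the set 2 CKO libraries carry numbers that match no replicate number. They were placed in set 2 by elimination, are called CKO a and CKO b, and enter with counts only. These libraries had 535022 and 542809 reads on the genes held in full, against 592860 to 635118 in the other libraries, and each result is also given without them where that matters. Recovered totals of the other 9 libraries lay between 20292432 and 20661238 reads. The mean transcript length of a library was 1540 to 1675 nt in CKO 1 to 3 and 2167 to 2294 nt in the controls, which did not overlap. Peg3 itself, and the 10 fibroblast and 3 myofibroblast markers on the lists, were not analysed here, so neither the deletion nor the cell identity could be checked. Of other cell markers, 1 of 7 macrophage and monocyte genes (Ly6c2) had 78.1 to 223 CPM in CKO libraries and 57.4 to 77.3 in controls. The erythroid markers Hbb-bs and Hbb-bt, 2 of 4 listed, summed to 10.1 to 31.5 CPM in CKO libraries and 1.82 to 3.47 in controls, with Hbb-bt at 0 in at least 1 control library. For Ly6c2, Hbb-bs and Hbb-bt every CKO library lay over every control, as was so for 27.1% of the 770 genes tested. After the length correction described below, Ly6c2 was at -0.22 and Hbb-bt at 1.13, neither called, and Hbb-bs was called higher at 1.16. With TPM, Ly6c2 was called lower at -0.29, and Hbb-bs and Hbb-bt higher at 0.97 and 1.075. The part of other cells in the results below was not tested.

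Elastic fibres are built from an elastin core laid on a scaffold of fibrillin microfibrils, and they give tissue its recoil. Emilin1 is a glycoprotein at the interface of elastin and microfibrils, which binds integrins and holds back the processing of the TGF-beta precursor. Ltbp4 binds latent TGF-beta and helps fibulin to deposit elastin on microfibrils, and the mouse gene makes long and short forms from separate promoters. Col16a1 encodes a collagen of the fibril-associated family, which does not form fibrils by itself but joins fibrils and, in skin, microfibrils. After infarction, fibroblasts lay down such matrix in the scar.

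Col16a1 (gene ID 107581) lies on GRCm38 chromosome 4, plus strand, at 130047817 to 130099277. Emilin1 (100952) lies on chromosome 5, plus strand, at 30913387 to 30921279, and Ltbp4 (108075) on chromosome 7, minus strand, at 27305140 to 27339720. No other gene of the GENCODE M21 annotation overlaps any of the 3 loci, so no overlapping gene shares their reads. The 250 bases before the RefSeq start of Col16a1 (chr4:130047590-130047839, plus strand) and before a start of the short form of Ltbp4 (chr7:27333664-27333913, minus strand) are shown. These genes of like transcript length differed most plainly in their change in CKO libraries. Each window precedes the start of a transcript, which need not be the start of the locus span given above. The Col16a1 window ends inside its span, and the Ltbp4 window lies within its own. The sequences are RefSeq's on GRCm38.p6, written 5′ to 3′, with capitals marking GC boxes (GGGCGG or its reverse complement CCGCCC, which may overlap).
Col16a1: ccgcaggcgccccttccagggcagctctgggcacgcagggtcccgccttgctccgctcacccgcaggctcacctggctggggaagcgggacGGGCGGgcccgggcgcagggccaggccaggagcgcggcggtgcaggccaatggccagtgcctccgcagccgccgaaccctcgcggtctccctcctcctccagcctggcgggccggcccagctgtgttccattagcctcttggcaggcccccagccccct
Ltbp4: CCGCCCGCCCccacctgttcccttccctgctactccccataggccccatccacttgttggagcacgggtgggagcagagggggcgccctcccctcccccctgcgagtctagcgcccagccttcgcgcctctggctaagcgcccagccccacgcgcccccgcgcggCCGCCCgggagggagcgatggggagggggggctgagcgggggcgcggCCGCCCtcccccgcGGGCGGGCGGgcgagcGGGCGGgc
Both windows are rich in GC. The Col16a1 window was 75.6% GC with 21 CpG sites and 1 GC box, and the Ltbp4 window 79.2% GC with 28 CpG sites and 7 GC boxes. Ltbp4 has 3 windows in the table, and the one shown holds the most GC boxes. The others were 79.2% GC with 29 CpG sites and 5 GC boxes, overlapping the window shown, and 64.4% GC with 15 CpG sites and 3 GC boxes. Over 32851 promoter windows of this length the median was 52.4% GC and 6 CpG sites, and 32.7% held a GC box. The Emilin1 window (chr5:30913536-30913785, plus strand) also lies within its locus span. It was 63.2% GC with 4 CpG sites, and held 2 copies of the Smad-binding letters CAGAC (or GTCTG), which 42.2% of all windows hold. Neither of the printed windows held these letters, and none of the 3 windows held TATAAA (or TTTATA), which 12.4% of all windows hold.

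The fibril-associated collagen Col16a1 fell steeply in CKO fibroblasts, whereas the direction of Emilin1 and Ltbp4 depended on how libraries were scaled and, for Ltbp4, on the set of libraries. Levels are given as CPM, the reads of a gene scaled to a fixed library size with TMM factors, which assumes that most genes do not change. The factors were 0.77 to 0.95 in CKO and 1.11 to 1.14 in control libraries, which did not overlap. They came from tested genes of the part held. The genes with a value in every library took 2.90% to 3.08% of the reads where totals were recovered. In CKO 1 to 3 Col16a1 was at 24.6, 29.6 and 30.1 CPM, and CKO a and CKO b held 14.8 and 16.2 CPM, against a lowest of 105, a median of 122 and a highest of 140 CPM in the 6 control libraries. Every CKO library lay under every control library, as was so for 29.2% of the 770 genes tested (27.1% lay over every control instead), and CKO a and CKO b were the lowest of all. The mean was 23.1 ± 7.25 CPM in CKO (SD, n = 5) and 121 ± 15.1 CPM in control (SD, n = 6). In edgeR's quasi-likelihood test, with label set as a covariate and p-values adjusted by Benjamini-Hochberg over the 770 genes, Col16a1 fell by 2.49 on the log2 scale (SE 0.11, 95% interval -2.74 to -2.24, adjusted p = 5.27e-08), a level 5.61-fold lower. In this comparison 71.4% of all tested genes were called at an adjusted p under 0.05, and 37.4% were called lower, so a call as such is common. The TMM assumption that most genes do not change is not met by these calls. The size was less so, since 24 of the 770 genes had a more negative change. Without CKO a and CKO b it fell by 2.20 (SE 0.075).

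Emilin1 was at 161, 122 and 132 CPM in CKO 1 to 3, and CKO a and CKO b held 200.3 and 178 CPM, against a lowest of 86.7, a median of 103 and a highest of 127 CPM in the control libraries. The groups overlapped, because CKO 2 lay under control 1. The mean was 159 ± 32.3 CPM in CKO (SD, n = 5) and 105 ± 18.6 CPM in control (SD, n = 6). With TMM scaling Emilin1 was called 0.61 higher on the log2 scale (SE 0.16, edgeR adjusted p = 0.00507, where 34.0% of genes were called higher), but with TPM it was called 0.50 lower. Without CKO a and CKO b, its rise with TMM was 0.25 (edgeR adjusted p = 0.0451).

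Ltbp4 was at 205, 171 and 182 CPM in CKO 1 to 3, and CKO a and CKO b held 216 and 199 CPM, against a lowest of 164, a median of 206 and a highest of 247 CPM in the control libraries. The range of the CKO libraries lay wholly inside that of the controls. The mean was 195 ± 17.8 CPM in CKO (SD, n = 5) and 205 ± 32.1 CPM in control (SD, n = 6). The change of -0.077 on the log2 scale was not called (SE 0.11, edgeR adjusted p = 0.528), and its 95% interval was -0.31 to 0.16. Without CKO a and CKO b, Ltbp4 was called lower, at -0.26 (edgeR adjusted p = 0.018).

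**Figure D1:**
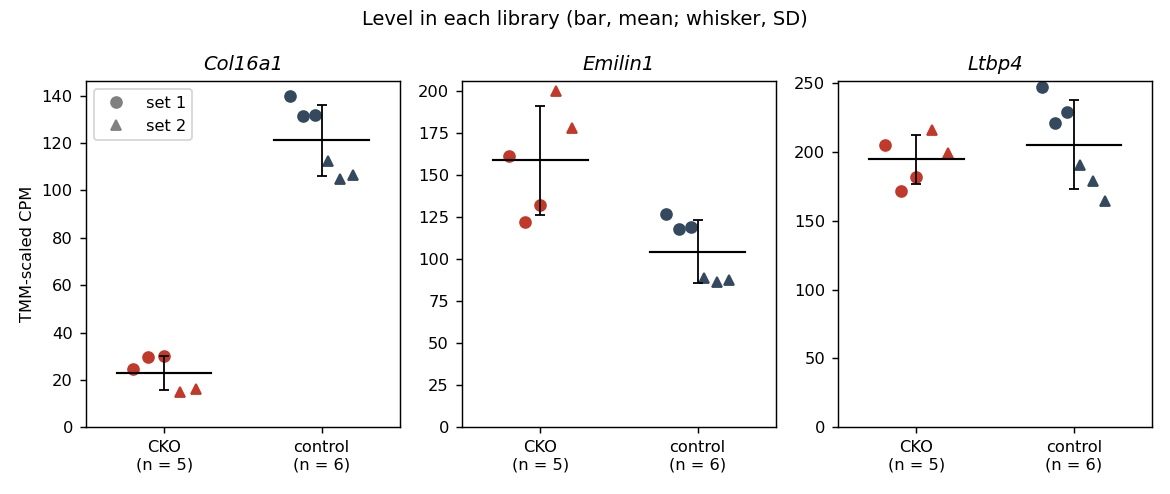
TMM-scaled CPM of Col16a1, Emilin1 and Ltbp4 in each of 5 CKO and 6 control libraries, with circles for set 1, triangles for set 2, a bar at the mean and whiskers of 1 SD. The CKO libraries lie at 14.8 to 30.1 CPM for Col16a1, under all controls (105 to 140), while the groups overlap for Emilin1 and Ltbp4.

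Levels of different genes can be compared per length with TPM, the share of all transcripts that a gene makes up in the deposited values of the authors, used here for CKO 1 to 3 and the 6 controls. In CKO 1 to 3, Emilin1 was at 59.6 ± 4.44, Ltbp4 at 56.7 ± 2.05 and Col16a1 at 8.11 ± 1.45 TPM (SD, n = 3 each). Emilin1 stood above Ltbp4 in each of these CKO libraries, with ratios of 1.12, 1.01 and 1.03, although their means differed by less than the SD of Emilin1. In control libraries Ltbp4 was the most abundant at 103 ± 16.9 TPM, followed by Emilin1 at 73.2 ± 13.1 and Col16a1 at 57.8 ± 7.78 TPM (SD, n = 6 each). That order, Ltbp4 over Emilin1 over Col16a1, held in each of the 6 control libraries. The TPM ratio of Emilin1 over Ltbp4 was 0.659 to 0.746 there. Of the TPM of the 3 genes together, Col16a1 made up 5.07% to 7.47% in CKO 1 to 3, against 23.95% to 26.1% in the controls. The TPM of Ltbp4 did not overlap between groups (54.5 to 58.6 in CKO 1 to 3, 79.5 to 124 in controls), nor did that of Col16a1 (6.44 to 9.05 in CKO 1 to 3, 48.6 to 67.1 in controls). Of the 672 genes tested with TPM 73.7% did not overlap, and 62.2% lay under every control as these genes did. Emilin1 overlapped (54.9 to 63.7 in CKO 1 to 3, 59.3 to 88.9 in controls).

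A ratio of counts within a library does not depend on how libraries are scaled to each other, and the 3 ratios between these genes separated the groups completely. Reads of Col16a1 per read of Ltbp4 were 0.121, 0.172 and 0.165 in CKO 1 to 3, with 0.0684 for CKO a and 0.0814 for CKO b, against 0.566 to 0.649 in the 6 controls. The mean log2 ratio fell by 2.38 in CKO, a 5.21-fold difference (exact permutation test, 2-sided, n = 5 and 6, p = 0.00433, and 0.00433 adjusted over the 3 ratios, the smallest that 462 splits allow). These splits mixed the label sets, whose libraries are compared below. The difference in mean log2 ratio was -1.94 within set 1 and -3.03 within set 2. By exact permutation, p was 0.1 in set 1 (n = 3 and 3) and 0.2 in set 2 (n = 2 and 3), and designs of these sizes can give nothing smaller. Col16a1 over Emilin1 was 0.0737 to 0.242 in CKO and 1.10 to 1.26 in control libraries, and its mean log2 ratio differed by -3.05 (-2.45 within set 1, -3.91 within set 2). Emilin1 over Ltbp4 was 0.711 to 0.927 in CKO and 0.468 to 0.534 in control libraries, and differed by 0.66 (0.51 within set 1, 0.88 within set 2). Both of these ratios gave the same exact permutation p and adjusted p as the first. The 3 ratios are not independent, since any 2 of them give the other. How many other pairs of genes separate the groups so is not given, while 56.4% of the 770 genes did so singly in CPM. A ratio shows that 2 genes changed unequally, not which of them changed. It does not cancel a trend with transcript length, and Emilin1 is shorter than the other 2 genes, as given below.

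**Figure D2:**
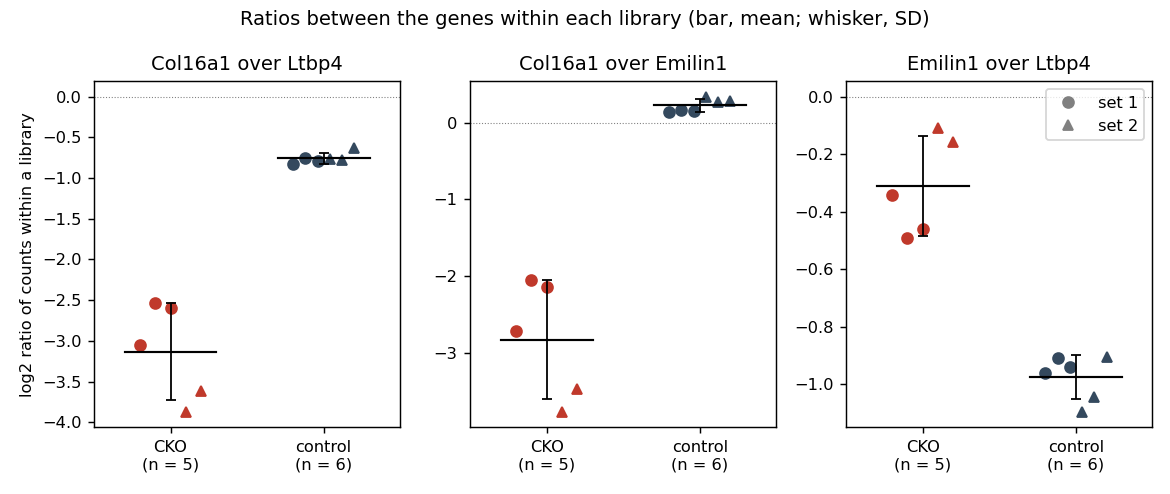
Log2 ratio of counts between each pair of genes within each of 5 CKO and 6 control libraries, with circles for set 1, triangles for set 2, a bar at the mean and whiskers of 1 SD. In each panel no CKO library overlaps a control library, and CKO a and CKO b (triangles) lie farthest from the controls.

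The direction of Emilin1 and Ltbp4 against zero turned with the scaling, and that of Col16a1 did not. Of the genes called with TMM, 52.4% were lower in CKO over 11 libraries and 49.3% without CKO a and CKO b. Over the same 9 libraries this was 66.7% with recovered totals and 84.3% with TPM. TMM placed the median change of all tested genes at -0.0642 over 11 libraries and at 0.012 over 9. Scaling by the recovered totals of 9 libraries placed that median at -0.31, and limma on log2(TPM + 1), a scale that understates changes of low genes, at -0.61. With recovered totals, where 67.3% of genes were called, Col16a1 was at -2.53, Emilin1 at -0.084 (not called, edgeR adjusted p = 0.361) and Ltbp4 at -0.60 (called). With TPM, where 78.9% were called, Col16a1 was at -2.85, Emilin1 at -0.50 and Ltbp4 at -1.02, all called lower by limma. Relative to the median of all genes, the TPM values were -2.24 for Col16a1, 0.11 for Emilin1 and -0.41 for Ltbp4. TMM over the same 9 libraries gave -2.21, 0.24 and -0.28 relative to its median, in the same order of genes. The gap between Col16a1 and Ltbp4 largely cancels the scaling of a library, so its likeness between scalings is no separate support. Over 9 libraries it was -1.94 with TMM, -1.93 with recovered totals and -1.83 with TPM. With TMM over 11 libraries, CKO a and CKO b among them, it was -2.41. Over all 25 alternatives the adjusted p was at most 4.63e-05 for Col16a1, and ran from 1.02e-05 to 0.361 for Emilin1 and from 1.45e-05 to 0.985 for Ltbp4.

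**Figure D3:**
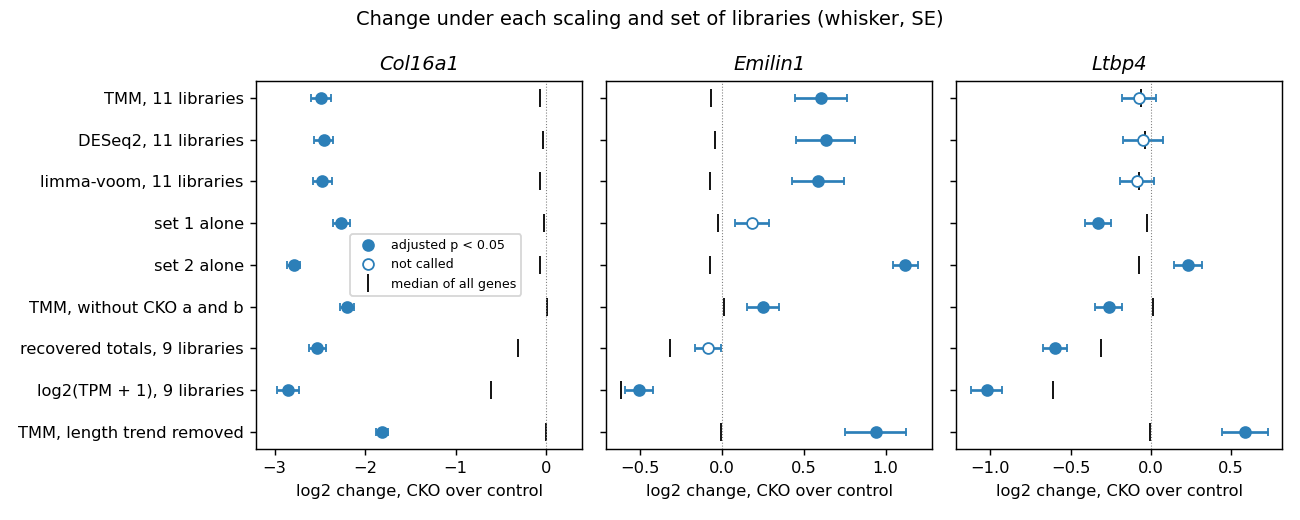
Log2 change of each gene, CKO over control, under 9 scalings or sets of libraries, with whiskers of 1 SE, filled circles for an adjusted p under 0.05 and a black tick at the median of all tested genes. Col16a1 lies between -1.81 and -2.85 throughout, while Emilin1 and Ltbp4 lie on both sides of 0.

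Transcript length went with the direction of change in these libraries, so each gene is set beside genes of a broad length class. The effective transcript length, implied by the deposited counts and FPKM, was about 5231 nt for Col16a1, 4990 nt for Ltbp4 and 3565 nt for Emilin1. Of 199 tested genes over 4000 nt, 13 were called higher and 147 lower, with a median change of -0.74. Of these genes, 5 had a more negative change than Col16a1 and 35 a more positive one than Ltbp4. Of 295 genes of 2000 to 4000 nt, 91 were called higher and 108 lower, with a median of -0.087, and 56 had a more positive change than Emilin1. Emilin1 lies toward the long end of this class, so the class median need not be that of its own length. With the trend of each library on length removed by loess, 69.8% of genes were called, and Col16a1 fell by 1.81 (SE 0.067, edgeR adjusted p = 8.97e-09). On that scale Emilin1 was called higher at 0.94, against 0.61 without the correction, and Ltbp4 was called higher at 0.58, against -0.077. Col16a1 and Ltbp4 have nearly the same length, so the correction shifts both nearly alike. The gap between their changes, -2.40 with the correction and -2.41 without it, could hardly move and tests nothing about length. The gaps to the shorter Emilin1 did move. Emilin1 less Ltbp4 was 0.35 with the correction and 0.68 without it, and Col16a1 less Emilin1 was -2.75 and -3.09.

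**Figure D4:**
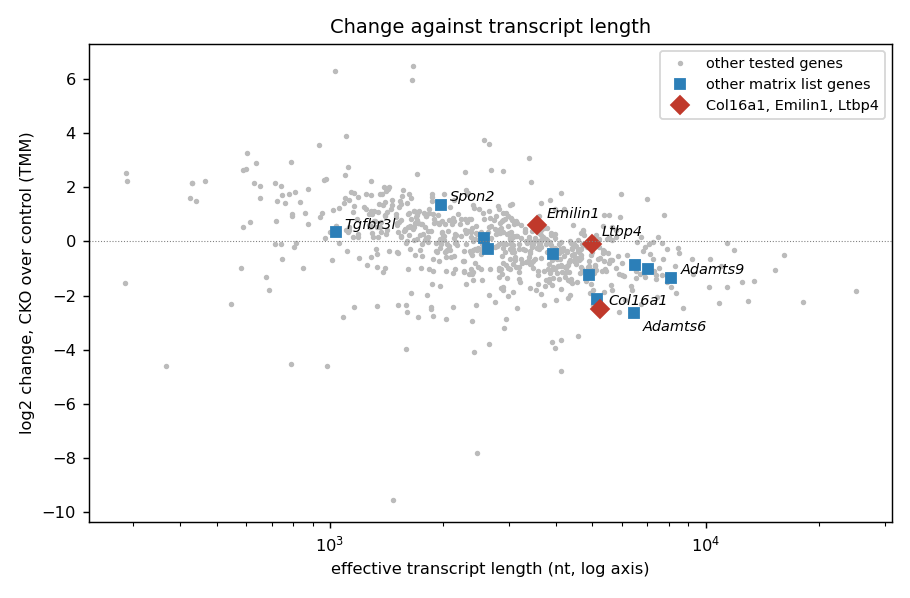
Log2 change with TMM scaling, CKO over control, against effective transcript length on a log axis, for the tested genes with a length. Red diamonds mark Col16a1 (-2.49), Ltbp4 (-0.077) and Emilin1 (0.61), blue squares the other genes of the matrix lists, and most genes over 4000 nt lie under 0.

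The effective length of a gene also reports on its mix of long and short transcripts, and it barely moved. Col16a1 was at 5263, 5263 and 5290 nt in CKO 1 to 3 and at 5230 to 5236 nt in the 6 controls. Ltbp4 was at 4938 to 4940 nt in CKO 1 to 3 and at 4961 to 5017 nt in the controls, and Emilin1 at 3484 to 3496 nt in CKO 1 to 3 and 3524 to 3609 nt in the controls. The groups did not overlap for any of the 3, yet the same held for 85.4% of 418 genes relative to the median length of their library. Relative to that median the mean log2 length was 0.070 higher in CKO for Col16a1, 0.030 for Emilin1 and 0.045 for Ltbp4 (exact permutation test, 2-sided, n = 3 and 6, p = 0.0238, the smallest that 84 splits allow, and 0.0238 adjusted over the 3 genes). The median size of this difference over the 418 genes was 0.066. Without division by the library median, the differences were 0.011, -0.029 and -0.014, so the direction for Emilin1 and Ltbp4 turned.

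The change in CKO against control differed between the label sets for each of the 3 genes. It was estimated in each set from 1 edgeR fit, in which 70.6% of 844 genes were called in set 2 (33.5% higher, 37.1% lower) and 62.1% in set 1 (29.7% higher, 32.3% lower). Col16a1 fell by 2.82 (SE 0.10) in set 2, and in set 1 it fell by 2.25 (SE 0.084). Emilin1 rose by 1.09 (SE 0.10) in set 2 and changed by 0.19 (SE 0.091, edgeR adjusted p = 0.0881) in set 1. Ltbp4 changed by 0.20 (SE 0.086, edgeR adjusted p = 0.0532) in set 2 and fell by 0.32 (SE 0.077) in set 1. Set 2 minus set 1 was -0.56 for Col16a1 (edgeR adjusted p = 0.00606), 0.90 for Emilin1 (0.00104) and 0.52 for Ltbp4 (0.00538), where 38.6% of genes were called. Emilin1 was called in set 1 when CKO 2 was left out (0.29), and Ltbp4 in set 2 when CKO 1, CKO 2 or control 4 was left out (0.20 to 0.27). The set 2 effect rests on CKO a and CKO b, the libraries tied only to their group, so the set and these libraries cannot be told apart.

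**Figure D5:**
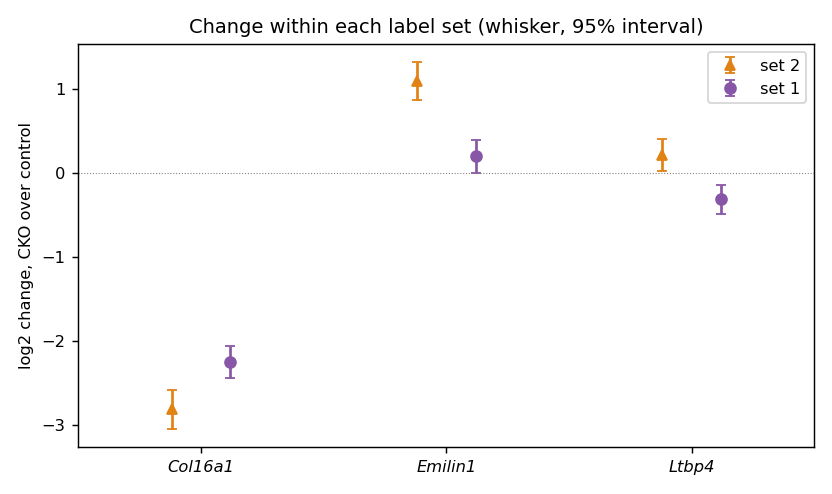
Log2 change with TMM scaling, CKO over control, in set 2 (triangles, 2 CKO and 3 control libraries) and set 1 (circles, 3 CKO and 3 control libraries), with 95% intervals. Col16a1 lies well under 0 in both sets, while the change is more positive in set 2 for Emilin1 and Ltbp4.

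The control libraries of the sets differed as well. Control 4 to 6 had 105 to 112 CPM of Col16a1, 86.7 to 89.0 of Emilin1 and 164 to 190 of Ltbp4, against 131 to 140, 118 to 127 and 221 to 247 CPM in control 1 to 3. For each gene, every control of set 2 lay under every control of set 1, as was so for 23.4% of 770 genes, while another 19.5% lay over them. The log2 difference was -0.32 for Col16a1 (edgeR adjusted p = 0.029), -0.47 for Emilin1 (0.0124) and -0.39 for Ltbp4 (0.013), in a comparison that called 67 of 844 genes (7.94%). That count was 25, 29, 21, 19 and 26 without control 1, 2, 3, 5 and 6 in turn, and 159 without CKO 1. These calls were not stable, since 5 of the 11 fits that each left out 1 library lost the call of Col16a1, and 4 lost that of Emilin1 and of Ltbp4. Control 1, 3, 5 and 6 did so for each gene, and control 2 for Col16a1. The largest adjusted p in these fits was 0.1, 0.0722 and 0.0858 in the same order.

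Across the 11 libraries the genes whose level followed Col16a1 most closely fell as well with TMM. Pearson's r of log2 CPM, over 501 genes with a given name and an average log2 CPM of at least 1, was highest for Nsd2, a histone methyltransferase (0.996), Mfap1b, a splicing factor with a near-identical copy that can share its reads (0.994), Pip4k2b, a lipid kinase (0.994), and Dennd3, a Rab activator (0.993). Their changes were -1.18, -2.41, -1.07 and -1.46, and all 4 were called lower. Such values mostly repeat the difference between groups, so the shared fall follows from the choice by r, and 131 genes had r over 0.9 with Col16a1. With the mean of each group in each set removed, r with Col16a1 was 0.93 for Nsd2, 0.48 for Mfap1b, 0.83 for Pip4k2b and -0.20 for Dennd3. Closest to Emilin1 were Gas8, of motile cilia (0.989), Rapgef1, a guanine nucleotide exchange factor (0.984), Adcy4, an adenylate cyclase (0.980), and Shmt2, of mitochondrial serine metabolism (0.971). These 4 were called higher with TMM, by 1.01, 0.42, 0.65 and 0.44, and each changed more in set 2. They were chosen by r with Emilin1 over the same libraries, so this likeness follows from the choice. In all, 39 genes had r over 0.9 with Emilin1. Closest to Ltbp4 were Ahnak2 (0.948), Dgkz, a diacylglycerol kinase (0.883), Gpr153 (0.826) and H6pd, of the endoplasmic reticulum (0.797), none of which was called. The choice by r makes this lack of calls likely, and only 1 gene had r over 0.9 with Ltbp4. Between the members, r was 0.43 for Emilin1 with Ltbp4, 0.17 for Col16a1 with Ltbp4 and -0.80 for Col16a1 with Emilin1 (n = 11). After the mean of each group in each set was removed, r was 0.83 for Emilin1 with Ltbp4, -0.41 for Col16a1 with Ltbp4 and -0.75 for Col16a1 with Emilin1. Few libraries stand behind these values, since each mean comes from 3 libraries or, for CKO in set 2, from 2. Rapgef1 reached 0.92 with Emilin1 on this measure, and r over other pairs of genes is not given.

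Few other genes of the elastic fibre and matrix lists were in the part of the table held. Of 383 listed symbols 14 were tested, of which 2 were called higher and 9 lower, with a median of -0.67 against -0.0642 for all 770 genes, of which 262 were called higher and 288 lower. Without the 3 members, 1 was called higher and 8 lower of 11, with a median of -0.87. After the length correction, 3 of the 14 were called higher and 6 lower, and 1 and 5 of the 11. Of all 738 genes tested with that correction, 261 were called higher and 254 lower. Of the 36 elastic fibre symbols 3 were tested, and beside Emilin1 and Ltbp4 these held Mmrn2, an endothelial relative of Emilin1. Mmrn2 had 33.3 ± 8.77 CPM in CKO (SD, n = 5) and 46.0 ± 4.45 CPM in control (SD, n = 6), and fell by 0.47 (SE 0.15, edgeR adjusted p = 0.0164). Its change was -0.020 in set 2 and -0.86 in set 1, a difference of 0.84 (edgeR adjusted p = 0.00155). After the length correction its change was -0.023 and was not called. Col16a1 was the 1 tested gene of 43 collagens.

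Of the TGF-beta pathway, 3 of 52 symbols were tested, among them Ltbp4, with 1 called lower and none called higher, against 1 called higher (Ltbp4) and 0 lower after the length correction. Wwp1, a ubiquitin ligase that acts on TGF-beta signalling, fell by 0.87 (SE 0.063, edgeR adjusted p = 7.99e-07), but its change was -0.042 and not called after the length correction. Tgfbr3l, at 0.825 ± 0.265 CPM in CKO (SD, n = 5) and 0.651 ± 0.178 CPM in control (SD, n = 6), changed by 0.34 (SE 0.28, edgeR adjusted p = 0.286). Of the 3 tested genes of 73 for adhesion to the matrix, Itga9, a subunit of an integrin that binds Emilin1, fell by 1.0 (SE 0.094). Kank1, of the belt around adhesions, fell by 2.12 (SE 0.25) from a low level. It had 1.49 ± 0.612 CPM in CKO (SD, n = 5) and 6.37 ± 0.677 CPM in control (SD, n = 6). Fermt3, an integrin activator of blood cells, changed by 0.14 (SE 0.11, edgeR adjusted p = 0.267) over both sets, but fell by 0.21 in set 2 (edgeR adjusted p = 0.0406) and rose by 0.41 in set 1 (0.000638). After the length correction Kank1 stayed lower at -1.47, and Itga9 was at -0.13 and not called.

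The other matrix genes held were Spon2, Txndc5 and the proteases. Spon2, a secreted matrix glycoprotein, had 19.9 ± 6.46 CPM in CKO (SD, n = 5) and 7.68 ± 0.387 CPM in control (SD, n = 6), and rose by 1.36 (SE 0.15) with TMM, by 1.05 after the length correction and by 0.26 with TPM. It was the 1 tested gene of 93 matrix glycoproteins and proteoglycans. Txndc5, a protein disulphide isomerase that folds matrix proteins, fell by 0.30 (SE 0.062), the 1 tested gene of 43 for collagen processing. The 3 tested matrix proteases of 68 were Adamts6, Adamts7 and Adamts9, and all fell, by 2.65, 1.24 and 1.34. Adamts6 was low in CKO, at 2.95 ± 2.01 CPM (SD, n = 5) against 17.0 ± 1.56 CPM in control (SD, n = 6). All 3 stayed called lower after the length correction, at -1.86, -0.61 and -0.37. With so few members held, the elastic fibre genes are not described as a group.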

How the data were processed

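The deposited table gives TPM, FPKM and read counts per gene, per the file headers. The counts deposited by the authors are expected counts, 73.7% of which are not whole (tolerance 0.005), and they were rounded. The submitters' processing notes name Bowtie2, RSEM, DESeq2 and GRCm38, without versions. The authors' TPM is scaled to the transcripts of the library, and their FPKM to its fragments and to effective length. The table was held in part, ending within a row. Of 1293 complete genes, 1141 had a value in every library. The other 152 were left out, and 4 TPM and FPKM columns of CKO a and CKO b were not used. The members and gene lists were chosen with earlier results of these data known.

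Library totals were recovered from counts and FPKM by a Theil-Sen fit on the length of 29 genes with 1 GENCODE M21 transcript (first control library, 95% interval 18548582 to 21144928 reads), which leaves the absolute scale of totals and lengths uncertain within that range. Relative totals came from 185 long genes. Those of CKO a and CKO b were estimated from the share held in CKO 1 to 3.

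Differential expression used edgeR 4.0.16 in R 4.3.3, with TMM factors and filterByExpr at a minimum count of 10. The quasi-likelihood test had terms for group and label set, and another fit gave every combination of group and set its own mean. Alternatives left out each library in turn or changed the scaling, filter, tool or sets. DESeq2 1.42.0 and limma 3.58.1 served as alternatives, with limma on log2(TPM + 1). Length trends were removed with robust loess offsets (span 0.5). SE are those implied by the F statistic. Ratios and lengths were compared with exact 2-sided permutation tests, which did not keep the splits within a label set. Effective length in a library used genes with FPKM of at least 2. The genes named are the 3 members, the tested genes of the matrix lists and the 4 genes most correlated with each member. The edgeR fit and the permutation code were tested on simulated data. Promoter windows came from the RefSeq table on GRCm38.p6, which holds 1275 of the gene IDs.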

Additional observations from a re-analysis of the deposited data

Results flagged for a closer look

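The change in CKO against control differed between the label sets for 17 of the 29 genes named, by the test of the difference itself, which called 38.6% of all 844 genes. Several of the 29 were named for following a member that differs in this way. As set 2 less set 1, this difference was -0.56 for Col16a1, 0.90 for Emilin1 and 0.52 for Ltbp4. Among the matrix list genes it was 0.84 for Mmrn2, -0.27 for Txndc5, 0.77 for Spon2, -2.19 for Adamts6 and -0.62 for Fermt3. It was -0.55 for Mfap1b, 1.42 for Gas8, 0.76 for Rapgef1, 1.05 for Adcy4, 0.57 for Shmt2, 0.76 for Ahnak2 and 0.44 for Gpr153, genes named for their likeness to a member. The blood cell markers Ly6c2 and Hbb-bs differed by 1.2 and 1.96.

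In 2 of 70 groups of libraries 1 value lay far from the rest, where chance gives about 1 in 20. The log2 ratio of Col16a1 over Ltbp4 was -0.62 in control 6, against -0.82 to -0.75 in the other controls, with a gap over the range of 0.641. Txndc5 had 248 CPM in control 2, against 262 to 266 in the other controls, with a gap over the range of 0.744.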

How the results depend on the processing

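Col16a1 was called lower in all 25 alternatives, from -2.99 to -1.68, and the count of genes called in CKO against control stayed within 1.5 times. Emilin1, called higher with TMM, was not called in set 1 alone (0.18), with the replicate block in set 1 (0.18), with totals over 11 libraries (0.22) or with recovered totals (-0.084). It was called lower with TPM (-0.50 at a pseudocount of 1, -0.51 at 0.1). Ltbp4 was called lower in set 1 alone (-0.33), with the replicate block (-0.33), without CKO a and CKO b (-0.26), with recovered totals (-0.60, or -0.46 over 11 libraries) and with TPM (-1.02 and -1.03). It was called higher in set 2 alone (0.23), with length offsets (0.58) and within set 2 with DESeq2 size factors (0.24). Within sets, length offsets gave 0.45 for Emilin1 in set 1, and 0.23 and 1.01 for Ltbp4 in sets 1 and 2. The cause of these differences was not tested.

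With 3 against 3 or fewer libraries the permutation tests cannot pass the threshold. The ratios Col16a1 over Ltbp4, Col16a1 over Emilin1 and Emilin1 over Ltbp4 differed by -1.94, -2.45 and 0.51 in set 1 and by -3.03, -3.91 and 0.88 in set 2. Effective lengths differed by 0.076, 0.028 and 0.047 for Col16a1, Emilin1 and Ltbp4 in set 1, and without the library median by -0.029 for Emilin1 and -0.014 for Ltbp4.

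Leaving out each library in turn gave 0.074 to 0.29 for Emilin1 in set 1 and 0.15 to 0.27 for Ltbp4 in set 2. The comparison of the control sets called 19 to 159 genes, with differences of -0.36 to -0.30 for Col16a1, -0.50 to -0.44 for Emilin1 and -0.45 to -0.34 for Ltbp4. Effective lengths differed by 0.068 to 0.074, 0.029 to 0.032 and 0.043 to 0.047. Same-numbered libraries of set 1 deviated together at r = 0.098, 0.025 and 0.229, so the numbers were not taken as pairs, and the block called 479 of 766 genes, against 499 without it. The settings without CKO a and CKO b, with totals over 11 libraries and with ratios in set 2 were chosen after the data were seen.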
